A study of Mus musculus with 6 samples.

Results

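Integrins and the other adhesion molecules of leukocytes were followed in monocytes and macrophages from mouse bone marrow. The set holds 31 genes chosen by name: the alpha and beta chains of integrins, their partners of the immunoglobulin superfamily, the selectin ligand gene Selplg, the hyaluronan receptor gene Cd44 and 3 cytosolic linkers. All probes whose annotated symbol, current or older, is one of these genes were taken, which gave 70 of the 45281 probes on the array, whose named probes cover 19057 genes. A group of 3 mice (D, E and F) had received MEC1 cells into a vein, and it was set against 3 age-matched, untreated control mice (A, B and C). MEC1 is an established human B cell line from chronic lymphocytic leukaemia. All 6 animals, controls included, were BALB/c mice of the Rag2-/-γc-/- genotype, which make no T, B or NK cells of their own, and were 11 weeks old when cells were taken on day 21, at an early stage of leukaemia. Monocytes and macrophages were purified by magnetic separation, on a marker not given in the sources used here, and total RNA of each mouse went onto 1 single-colour bead array. The comparison asks how leukaemic B cells in the animal alter these cells of the marrow, here in the genes that let them adhere and migrate.

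Integrins are pairs of an alpha and a beta chain that span the membrane. The pair decides the ligand, which may be matrix such as fibronectin or collagen, or a counter-receptor on another cell such as the products of Icam1 and Vcam1. Inside the cell, talin and kindlin bind the tail of the beta chain and switch the receptor to a state that binds tightly, and vinculin ties talin to actin. In bone marrow, the Itga4 chain with its beta partners holds leukocytes and their precursors to Vcam1 and fibronectin, while the Itgb2 pairs serve firm adhesion and migration of myeloid cells. Icam1, their counter-receptor, is known as a gene that inflammatory signals switch on.

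The 2 genes whose probes passed the test are shown with the stretch around their transcription start, from RefSeq on build GRCm38.p6, with 250 bases before the start and 50 after it. Of the 31 genes, 21 had an entry, in 23 windows. The Icam1 window is chr9:21015690-21015989 on the plus strand and has a GC content of 64.7%. The Itga4 window is chr2:79255176-79255475, also on the plus strand, with a GC content of 64.3%. The median over all 32851 windows was 52.7%. Capitals mark the motifs found by letter match on both strands.
Icam1: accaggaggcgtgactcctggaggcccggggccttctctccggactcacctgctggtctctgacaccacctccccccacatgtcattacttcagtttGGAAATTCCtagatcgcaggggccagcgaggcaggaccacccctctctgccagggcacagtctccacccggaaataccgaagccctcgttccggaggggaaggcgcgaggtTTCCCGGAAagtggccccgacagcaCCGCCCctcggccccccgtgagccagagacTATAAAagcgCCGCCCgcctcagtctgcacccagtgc
Itga4: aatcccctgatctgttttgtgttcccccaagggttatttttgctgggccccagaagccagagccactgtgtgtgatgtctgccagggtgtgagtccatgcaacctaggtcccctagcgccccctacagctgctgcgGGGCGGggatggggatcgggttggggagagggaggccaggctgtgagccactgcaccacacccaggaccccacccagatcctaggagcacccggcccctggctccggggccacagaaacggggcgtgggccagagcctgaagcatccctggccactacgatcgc

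The Icam1 window holds GGAAATTCC, a variant of the NF-kappaB motif, at position -153 from the annotated start. It occurs in 104 of all windows (0.317%) and in no other of the 23 windows of adhesion genes. The STAT motif TTCNNNGAA is matched in the Icam1 window at -42 by TTCCCGGAA, and 8.3% of all windows hold it. TATAAA lies at position 14, after the annotated start, and is held by 13.6% of all windows. The GC box GGGCGG is read on the minus strand at -17 and at 24 in Icam1 and on the plus strand at -114 in Itga4, against 35.7% of all windows with at least 1 and 16 of the 23 windows of adhesion genes. The other 2 motifs searched, GGGNNNTTCC and the ETS motif GAGGAAG, were in neither window. The motifs searched do not overlap in these 2 windows, and a match of letters is not a binding site.

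Intensities were corrected for background with an offset of 16, quantile-normalized and put on the log2 scale, and all levels below are on that scale. A probe counts as detected where its deposited detection p-value, which compares it with the negative controls of its array, is under 0.05. Between 15545 and 15810 probes were detected on the MEC1 arrays and between 15998 and 16976 on the control arrays. Median raw intensity was also lower on the MEC1 arrays, at 86.3, 70.7 and 87.6 for D, E and F, against 131, 114 and 115 for the controls A, B and C. The log2 values of 2 arrays correlated across probes at Pearson's r of 0.923 to 0.967 within the MEC1 group, 0.983 to 0.991 within the control group and 0.926 to 0.971 between the groups. All 6 arrays were on 1 chip, with the MEC1 mice at the last 3 positions and the control mice at the first 3, so position and group cannot be told apart. In such bulk samples, fewer cells of a type and less RNA per cell cannot be told apart either.

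Of the 70 adhesion probes, 35 were detected on at least 3 of the 6 arrays and were tested (50%, against 36.4% of all probes), and they represent 22 of the 31 genes. For 9 genes no probe was detected on any array. These are the collagen receptor chain Itga2, the laminin receptor chains Itga3 and Itga6, Itga9, whose product binds tenascin and Vcam1, and Itgae, the partner of Itgb7 that binds E-cadherin. They also include Itgax, which encodes CD11c of dendritic cells, the beta chain Itgb3, and the junctional adhesion molecules Jam3 and F11r. Their 19 probes lay between 4.63 and 5.67 in both groups, near the bottom of the scale, where an array shows only that a probe is not above background. A silent gene and a probe that does not bind well give the same reading there.

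**Figure D1:**
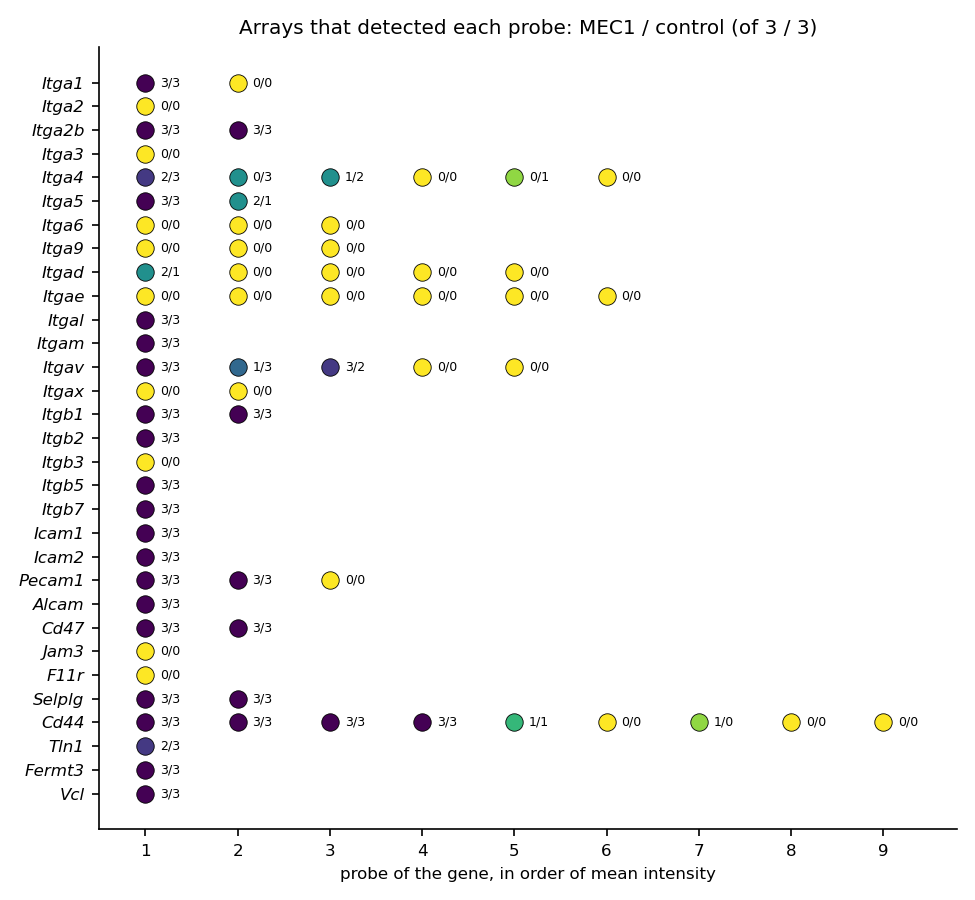
Each circle is 1 of the 70 probes of the 31 genes (rows), placed along the horizontal axis by its rank in mean intensity within the gene, and the fraction beside it counts the arrays that detected it, MEC1 before the slash and control after it, 3 being the most on either side. Darker circles were detected on more of the 6 arrays. Itga4 and Cd44 have probes that range from detected to not detected, and 27 probes in all were detected on all 6 arrays.

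Across the 35 tested probes, 1 was higher in MEC1 mice (Icam1) and 1 was lower (a probe of Itga4) at an adjusted p under 0.05, by limma with Benjamini-Hochberg adjustment over all 16460 tested probes. Over the whole array 1.54% of tested probes passed, made up of 0.869% higher and 0.668% lower. The 3 MEC1 values did not overlap the 3 control values for 11 adhesion probes (31.4%), of which 5 were higher and 6 lower, against 27.7% of all tested probes, 14.4% higher and 13.3% lower. An unadjusted p under 0.05 was found for 8 of the 35 (22.9%), against 19.8% of all tested probes. The median log2 change was -0.04, with a range of -1.14 to 1.16, and the median of all tested probes was -0.02. The shares without overlap and with an unadjusted p under 0.05 were thus near those of the array as a whole. The called share was 5.71%, against 1.54%, but it rests on 2 of 35 probes, and the 2 calls are read as single genes.

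**Figure D2:**
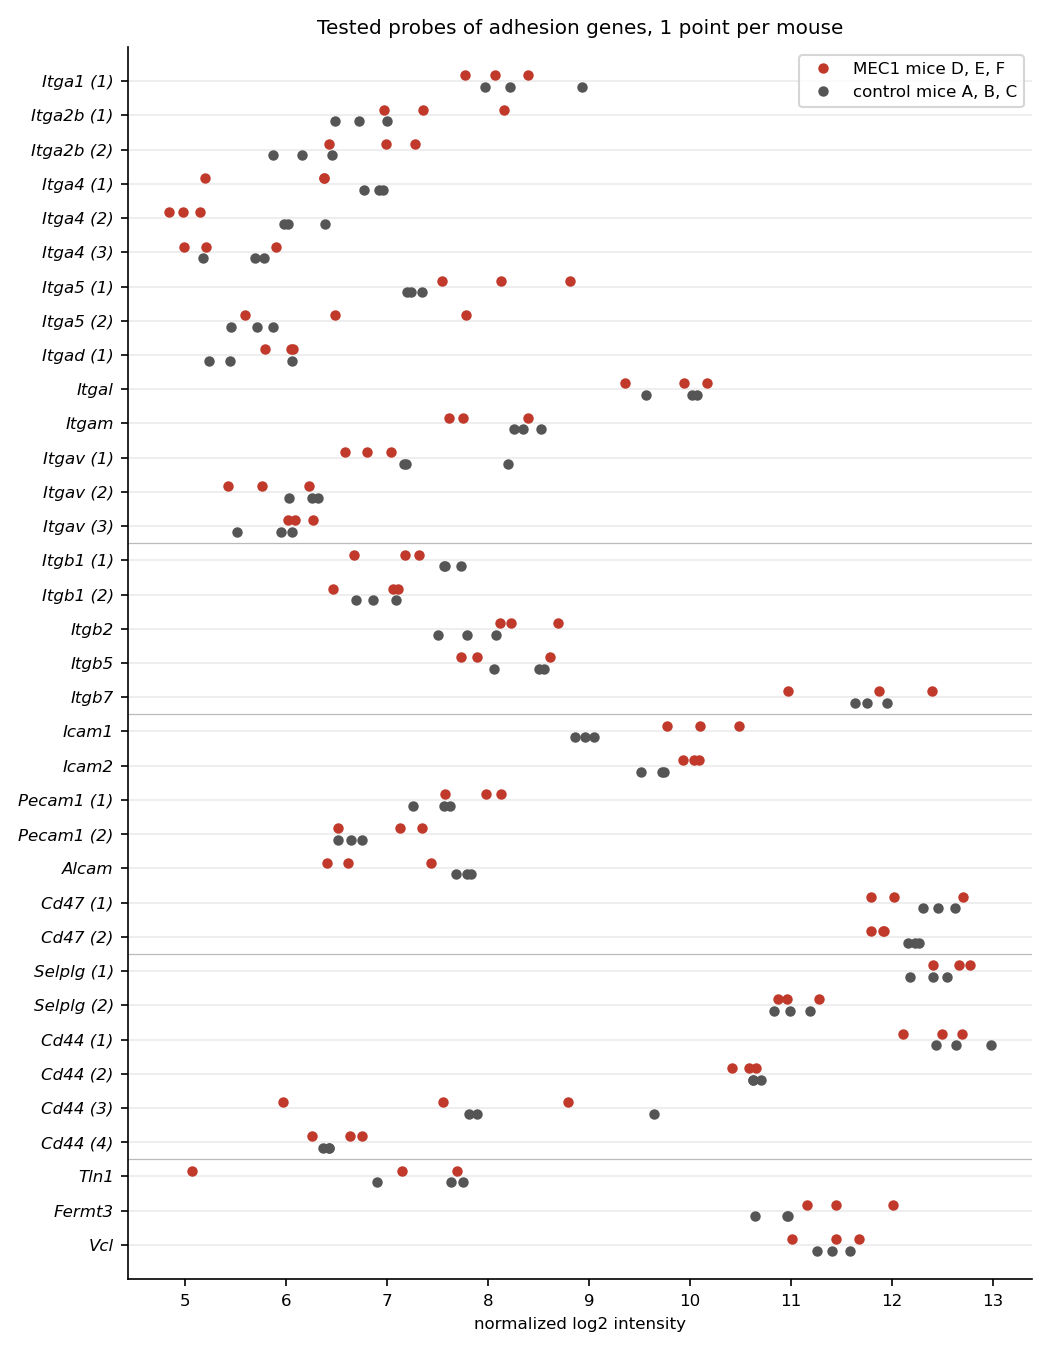
Normalized log2 intensity (horizontal axis) of the 35 tested adhesion probes, with 1 point per mouse, MEC1 mice D, E and F above control mice A, B and C in each row, and lines parting alpha chains, beta chains, immunoglobulin superfamily, Selplg and Cd44, and cytosolic linkers. Probes of 1 gene are numbered from the highest mean down, and the 3 MEC1 points lie clear of the control points for 11 probes.

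Icam1, the counter-receptor of the Itgb2 integrins, rose. Its probe lay at 10.10, 10.49 and 9.77 in the MEC1 mice (D, E, F), against 9.05, 8.96 and 8.86 in the control mice (A, B, C). Every MEC1 mouse was above every control mouse, and mouse E was the highest. The means were 10.12 ± 0.36 in MEC1 mice and 8.96 ± 0.10 in control mice (SD, n = 3 each), a log2 change of 1.16 ± 0.21 (SE; adjusted p = 0.0382 by limma), or 2.24-fold. Raw intensities, before any normalization, were 1008, 692 and 693 in MEC1 mice against 823, 751 and 677 in control mice, so on the deposited scale the groups overlapped. When arrays were scaled to a common median instead of by quantiles, the median of all tested probes moved to -0.48, the log2 change of Icam1 became 0.62 (1.10 relative to that median) and it no longer passed (adjusted p = 0.183). It also did not pass without control mouse A, B or C (adjusted p of 0.168, 0.185 and 0.204). The same held without MEC1 mouse E (0.98, adjusted p = 0.0844) and in a fit without intensity trend and robust variance (adjusted p = 0.0766).

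Itga4 encodes the alpha chain of the receptors for Vcam1, fibronectin and, with Itgb7, Madcam1. It has 6 probes, of which 3 were tested. ILMN_2574929 fell. It lay at 4.98, 4.85 and 5.15 in the MEC1 mice (D, E, F), against 5.98, 6.02 and 6.39 in the control mice (A, B, C). It was detected on 0 of 3 MEC1 arrays and on 3 of 3 control arrays, so it entered the test through the control arrays alone. The fitted log2 change was -1.14 ± 0.23 (SE; adjusted p = 0.0486 by limma). Since the MEC1 values are not above background, the change is given as a bound. The control mean of 6.13 was set against 5.81, the MEC1 mean after each array's value was raised to the lowest value of its detected probes, which makes the level at least 1.25-fold lower in MEC1 mice. The call did not hold with an offset of 50 (adjusted p = 0.0581) or without intensity trend and robust variance (0.0612). It was also lost without control mouse A, B or C (0.176, 0.186 and 0.235), MEC1 mouse E (0.134) or MEC1 mouse F (0.0667).

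The other tested probes of Itga4 did not pass. ILMN_1232028 lay at 6.38, 5.20 and 6.38 in MEC1 mice, against 6.92, 6.96 and 6.77 in control mice. All 3 MEC1 values were below the control values, but that of mouse E was not above background. The fitted log2 change of -0.90 ± 0.35 (SE; adjusted p = 0.212 by limma) is thus not a measured size. Without MEC1 mouse E it was -0.515 (adjusted p = 0.349). ILMN_1251003 lay at 4.99, 5.21 and 5.90, against 5.18, 5.69 and 5.79, with a change of -0.19 ± 0.30 (adjusted p = 0.748) and groups that overlap. Of the 3 untested probes, 1 was detected on 1 control array and the others on none.

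The probes of 1 gene were compared directly, by testing whether the within-array difference between 2 probes differs between the groups. The fitted change of the Itga4 probe ILMN_2574929 relative to ILMN_1251003 was -0.95, which did not pass (adjusted p = 0.285 by limma). It is not a measured size, since ILMN_2574929 was not above background on any MEC1 array and ILMN_1251003 only on 1 of 3 MEC1 arrays and 2 of 3 control arrays. The fitted gap between ILMN_2574929 and ILMN_1232028, under the same limit, was 0.24 and did not pass. Without MEC1 mouse D, the gap to ILMN_1251003 passed (adjusted p = 0.0391), with the same limit on its size. Over the whole array 0% of the 7239 pairs passed, and none of the 18 pairs of adhesion probes did, in 9 genes. An unadjusted p under 0.05 was found for 3 of the 18 pairs (16.7%), against 10.6% of all pairs. In 5 of the 18 (27.8%, against 32.2% of all pairs) the changes of the 2 probes had opposite signs.

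Among the other alpha chains, Itga5, which pairs with Itgb1 as the classic fibronectin receptor, lay above the controls on a probe detected on all 6 arrays, without a call. Its probe ILMN_2849449 lay at 8.81, 8.13 and 7.55 in the MEC1 mice (D, E, F), against 7.35, 7.24 and 7.20 in control mice. Mouse D was well above the controls and mouse F only just, and the log2 change was 0.90 ± 0.32 (adjusted p = 0.184 by limma). The second probe, ILMN_2670172, gave 7.78, 6.49 and 5.60 against 5.71, 5.46 and 5.87, and was detected on 2 of 3 MEC1 arrays and 1 of 3 control arrays. Its fitted change of 0.94 ± 0.50 (adjusted p = 0.324) is thus set against controls mostly not above background. It keeps the order D, E, F, but mouse F lay within the control range.

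Itga2b encodes the alpha chain of the fibrinogen receptor of megakaryocytes and platelets. ILMN_2911123 lay at 8.16, 7.36 and 6.98 in MEC1 mice, against 6.72, 7.0 and 6.49 in control mice (0.76 ± 0.34, adjusted p = 0.257 by limma). ILMN_2732623 lay at 7.28, 6.99 and 6.43, against 6.46, 6.16 and 5.88 (0.73 ± 0.31, adjusted p = 0.237). Both probes show mouse D highest, with mouse F inside the control range. The summed linear intensity of megakaryocyte and platelet genes (10 of 12 listed genes had a probe) ranged from 964 to 1597 in MEC1 mice and from 1093 to 1583 in control mice. Of its leading genes, Pf4, platelet factor, gave a log2 change of 0.22 (adjusted p = 0.804), Gp9, a chain of the receptor for von Willebrand factor, gave -0.55 (adjusted p = 0.436), and Ppbp was not above background on 5 of 6 arrays. Of the 6 tested probes of that list, 5 had log2 changes above 0 and 1 (Gp9) below, with a median of 0.24 and no call. The part of these cells in the Itga2b values was not tested.

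Itgav encodes the alpha chain of the vitronectin receptors and has 5 probes, 3 of them tested and none called. ILMN_1236648 lay at 7.04, 6.80 and 6.59 in MEC1 mice, against 8.20, 7.19 and 7.17 in control mice, with a log2 change of -0.71 ± 0.33 (adjusted p = 0.275 by limma). The MEC1 values lie just below those of control mice B and C, and control mouse A stands well above both. ILMN_1238119 gave -0.40 ± 0.27 (adjusted p = 0.442) and ILMN_1251946 gave 0.28 ± 0.25 (adjusted p = 0.546). The fitted change of ILMN_1238119 relative to ILMN_1251946 was -0.68 ± 0.20 (95% interval -1.16 to -0.21) and did not pass (adjusted p = 0.335 by limma). It is not a measured size. ILMN_1238119 was detected on only 1 of 3 MEC1 arrays and ILMN_1251946 on 2 of 3 control arrays.

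The partners of the beta chain Itgb2 are Itgal, which binds Icam1 and Icam2, Itgam, the CD11b chain of the complement receptor of myeloid cells, Itgad and Itgax. Itgam, Itgax and Itgad are neighbours on chromosome 7 in the RefSeq gene order. Itgam lay at 7.62, 8.40 and 7.75 in MEC1 mice, against 8.35, 8.53 and 8.26 in control mice. Mouse E was within the control range and mice D and F below it (-0.46 ± 0.26, adjusted p = 0.355 by limma). With scaling to a common median Itgam passed as lower (-1.05, adjusted p = 0.0465), at -0.56 relative to the median of all probes. Itgal gave -0.06 with a 95% interval of -0.62 to 0.49. The 1 tested probe of 5 for Itgad gave a fitted change of 0.39 (-0.22 to 1.01). It was detected on only 2 of 3 MEC1 arrays and 1 of 3 control arrays, so this is not a measured size. The collagen receptor chain Itga1, a neighbour of the undetected Itga2 on chromosome 13, gave -0.29 (-0.97 to 0.38).

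Of the beta chains, none of 5 tested probes in 4 genes passed in limma, and 0 had an unadjusted p under 0.05. Itgb2, the beta chain shared by the leukocyte integrins, lay at 8.23, 8.69 and 8.12 in MEC1 mice, against 7.79, 8.08 and 7.50 in control mice. The groups did not overlap, though mouse F and control mouse B were only just apart, and the log2 change was 0.55 ± 0.26 (adjusted p = 0.270 by limma). With scaling to a common median it was -0.01, which is 0.47 above the median of all probes under that scaling. Itgb1, the partner of Itga1, Itga4, Itga5 and Itgav, had 2 probes. ILMN_2609304 lay at 7.31, 6.68 and 7.18, against 7.73, 7.56 and 7.58 (-0.57 ± 0.26, adjusted p = 0.267). ILMN_2789077 gave a change of -0.0049 with a 95% interval of -0.65 to 0.64. The change of the first relative to the second was -0.56 ± 0.15 (95% interval -0.93 to -0.19; adjusted p = 0.316).

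Itgb7, the partner of Itga4 and Itgae in homing to the gut, was spread widely among the MEC1 mice. It lay at 12.39, 11.87 and 10.97 in mice D, E and F, against 11.95, 11.63 and 11.75 in control mice. Mouse D was above all controls and mouse F below them, and the mean change was -0.03 with a 95% interval of -0.80 to 0.73. Itgb5, a beta partner of Itgav, gave -0.29 (-0.94 to 0.35).

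**Figure D3:**
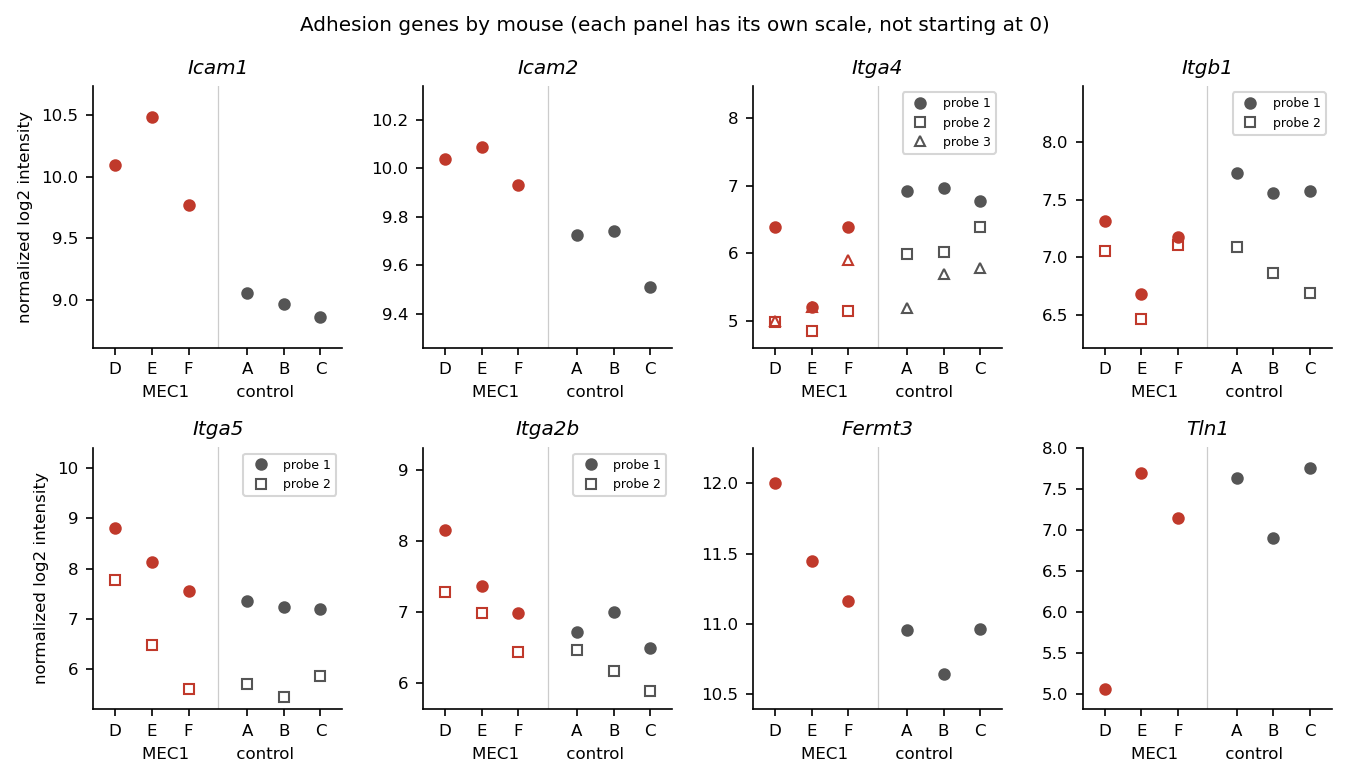
Normalized log2 intensity (vertical axes, which differ between panels and do not start at 0) of 8 adhesion genes in each mouse, MEC1 mice D, E and F in red at the left and control mice A, B and C in grey at the right of each panel, with 1 symbol per tested probe. Icam1 separates the groups by 1.16 on average, while Itga5, Itga2b and Fermt3 run from D through E to F, and Tln1 is low in mouse D alone.

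Beside Icam1, the immunoglobulin superfamily held 6 tested probes of 4 genes, and none passed in limma, though 2 had an unadjusted p under 0.05 (Alcam and a Cd47 probe). Icam2, a second ligand of the Itgal and Itgb2 pair, lay at 10.04, 10.09 and 9.93 in MEC1 mice, against 9.72, 9.74 and 9.51 in control mice. The groups did not overlap, with a log2 change of 0.36 ± 0.16 (adjusted p = 0.256 by limma), which became -0.18 with scaling to a common median, or 0.31 relative to the median of all probes. Pecam1, which serves passage between endothelial cells, gave 0.41 (95% interval -0.16 to 0.98) and 0.36 (-0.30 to 1.03) on its 2 tested probes, and -0.17 and -0.16 with median scaling (0.32 on both probes relative to the median of all probes). Pecam1 is also a marker of endothelium. The summed intensity of the endothelial and stromal genes, Pecam1 included, ranged from 2333 to 2562 in MEC1 mice and from 1814 to 2411 in control mice, with 13 of 13 genes matched. Of its first genes, Cdh5 gave 0.49 (adjusted p = 0.269 by limma) and Emcn was not above background on any array. Kdr was detected on 3 of 3 MEC1 arrays and 0 of 3 control arrays and did not pass (adjusted p = 0.127). It entered the test through the MEC1 arrays alone, so its direction followed from the filter. Of the 11 tested probes of the endothelial and stromal list, 10 had log2 changes above 0 and 1 below, with a median of 0.36 and no call. These 11 include Kdr and the 2 tested probes of Pecam1 itself, so they are not a separate background for Pecam1. The part of endothelial cells in the Icam2 and Pecam1 values was not tested.

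Alcam, the ligand of Cd6, lay at 7.44, 6.62 and 6.40 in the MEC1 mice (D, E, F), against 7.80, 7.83 and 7.68 in control mice. The 3 MEC1 values were all lower and more spread, with a log2 change of -0.95 ± 0.31 (adjusted p = 0.155 by limma). Alcam passed as lower with array weights, with scaling to a common median and without MEC1 mouse D. Cd47, the signal that Sirpa on phagocytes reads, had 2 probes. ILMN_2744337 lay at 11.79, 11.92 and 11.91, against 12.15, 12.26 and 12.23, with no overlap and a change of -0.34 ± 0.12 (adjusted p = 0.167). ILMN_1251143 gave -0.29 ± 0.22 (adjusted p = 0.482), and the 2 probes differed by 0.05 (95% interval -0.63 to 0.73). Without MEC1 mouse D, ILMN_1251143 passed as lower, at -0.55 (adjusted p = 0.0488).

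Selplg, the ligand of P-selectin on rolling leukocytes, gave log2 changes of 0.24 (95% interval -0.09 to 0.56) and 0.03 (-0.34 to 0.41) on its 2 probes. Of the 9 probes of Cd44, 4 were tested and none passed. None of the 6 probes of these 2 genes had an unadjusted p under 0.05. ILMN_1223697 and ILMN_3114585 gave -0.25 (-0.67 to 0.17) and -0.10 (-0.43 to 0.23), and ILMN_2474229 gave 0.14 (-0.44 to 0.72). The remaining probe, ILMN_2754990, scattered in both groups, at 7.55, 8.80 and 5.97 in MEC1 mice against 9.65, 7.81 and 7.89 in control mice. Its change of -1.01 ± 0.82 (adjusted p = 0.526 by limma) has an interval of -2.99 to 0.97, so this probe limits little.

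None of the 3 cytosolic linkers passed in limma, and 1 had an unadjusted p under 0.05. Fermt3, the kindlin of blood cells, lay at 12.01, 11.45 and 11.16 in the MEC1 mice (D, E, F), against 10.96, 10.64 and 10.96 in control mice. Every MEC1 value was above every control value, with a log2 change of 0.68 ± 0.22 that did not pass (adjusted p = 0.150 by limma). Tln1, which encodes talin, lay at 5.07, 7.69 and 7.15, against 7.64, 6.90 and 7.75. Mice E and F were within the control range and the probe was not above background in mouse D. Dok1, outside the set, was singled out after its values were seen to be low in mouse D as well. It lay there at 5.14 on ILMN_1242767 and 4.87 on ILMN_2704141. In mouse E these probes lay at 8.64 and 8.46. Array D had the lowest weight in the fit with array weights, at 0.325. What underlies the low values in mouse D was not tested. The change of Tln1 was -0.79 ± 0.65 (adjusted p = 0.524 by limma) and -0.0085 without mouse D. Vcl, which encodes vinculin, gave -0.04 (95% interval -0.47 to 0.38).

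**Figure D4:**
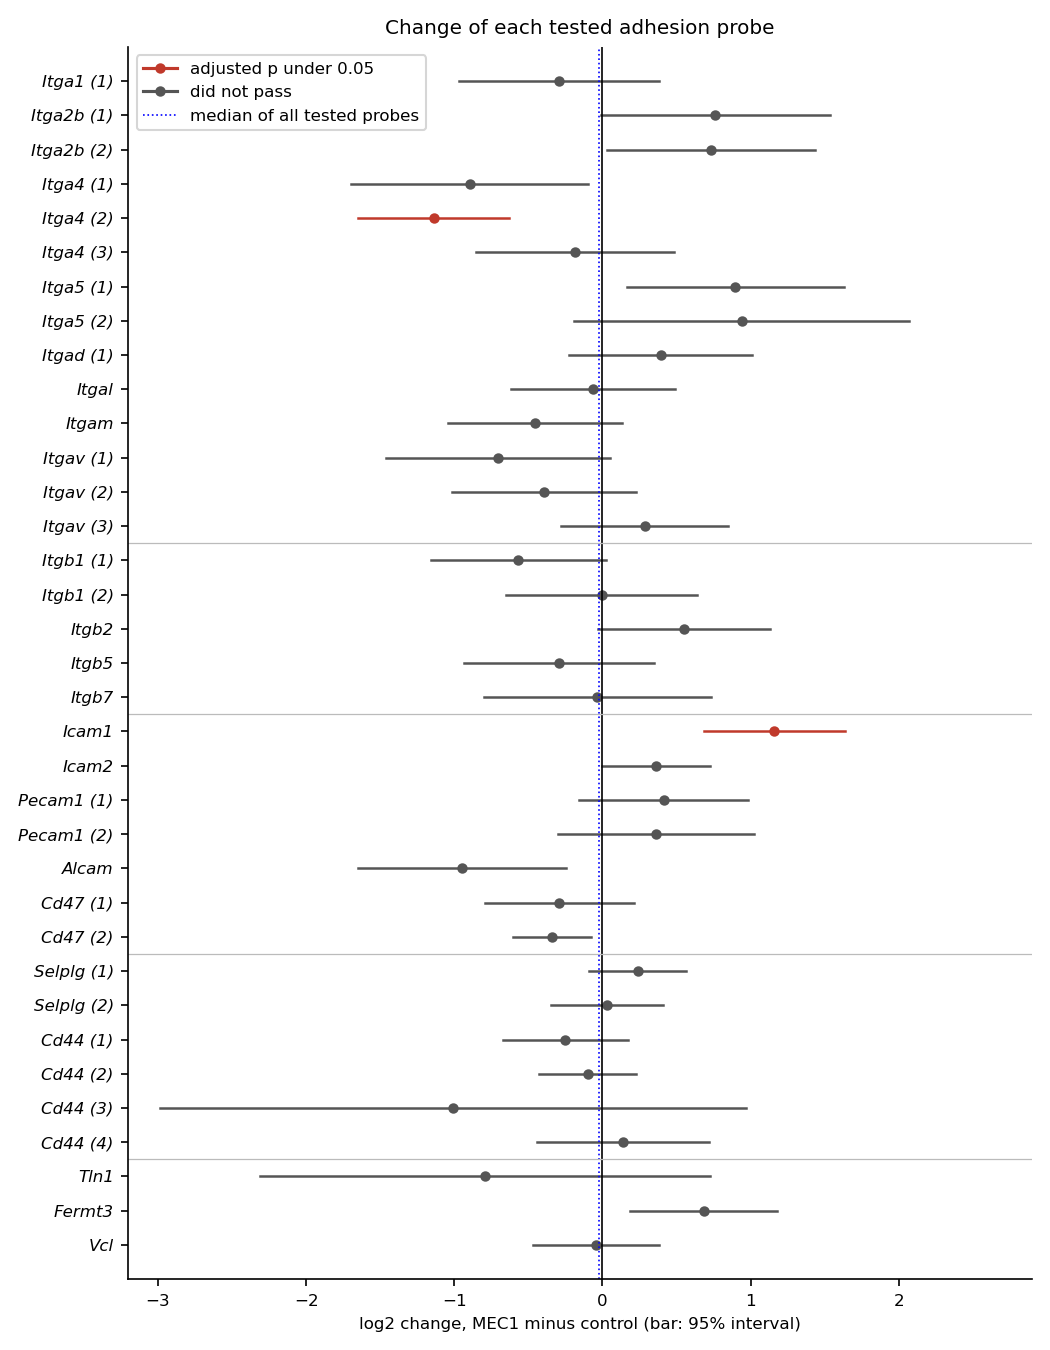
Log2 change, MEC1 minus control (horizontal axis), of each of the 35 tested adhesion probes, with bars for the 95% interval and a dotted line at the median of all tested probes (-0.02). Only Icam1 (1.16) and the Itga4 probe ILMN_2574929 (-1.14), in red, had an adjusted p under 0.05 over the array.

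The MEC1 mice were more spread than the control mice for these genes. The SD was larger among the MEC1 mice for 29 of the 35 tested probes, with a median SD of 0.358 in MEC1 mice and 0.186 in control mice. The same held over the array, with medians of 0.331 and 0.179. Within the MEC1 group, mouse D was the highest for 19 adhesion probes (54.3%, against 42.5% of all tested probes), mouse E for 13 and mouse F for 3 (8.57%, against 28.6%). Mouse F was the lowest for 22 (62.9%, against 32.7%). Probes of 1 gene and genes that vary together are not independent, so these shares are a description.

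The cytoplasmic machinery of integrin activation and adhesion signalling was described by 32 tested genes with 47 probes (40 of 43 listed genes had a probe). None was higher and 1 was lower, against array-wide shares of 0.869% and 0.668%, and the median log2 change was 0.12. An unadjusted p under 0.05 was found for 9 of the 47, against 19.8% of all tested probes. The groups did not overlap for 16 (34%, against 27.7% over the array). Fyb, an adaptor that links immune receptors to integrin activation, fell. Its probe ILMN_3006219 lay at 9.55, 9.50 and 9.47 in MEC1 mice, against 10.75, 10.47 and 10.70 in control mice, a log2 change of -1.14 ± 0.16 (adjusted p = 0.0161 by limma). The MEC1 mice were tightly grouped, all below the controls. Without control mouse A, B or C the adjusted p was 0.127, 0.0923 and 0.134. A second Fyb probe, ILMN_1236105, gave -0.21 ± 0.39 (adjusted p = 0.786). The genes of the list with the highest mean values did not pass: Zyx, the focal adhesion protein zyxin, gave -0.26 (adjusted p = 0.261) and Rap1b, a small GTPase that switches integrins on, gave 0.00 (adjusted p = 0.985).

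Other adhesion receptors outside the set gave 33 tested probes of 20 genes (30 of 32 had a probe), with a median of -0.01. None was called, against 1.54% over the array. For 5 of the 33 an unadjusted p was under 0.05, against 19.8% of all tested probes. The groups did not overlap for 4 probes (12.1%, against 27.7% over the array). Glg1, a ligand of E-selectin, gave -0.11 (adjusted p = 0.690 by limma) and the tetraspanin Cd63 gave 0.13 (adjusted p = 0.605). Of genes singled out after their values were seen, Selp, which encodes P-selectin, the receptor of Selplg, gave 1.01 ± 0.26 (adjusted p = 0.0964), with 7.52, 7.52 and 7.16 in MEC1 mice against 6.41, 6.52 and 6.23 in control mice. Selp is also on the list of platelet genes. Vcam1, the counter-receptor of Itga4, was singled out in the same way and gave 0.19 (adjusted p = 0.597). Icam4, the neighbour of Icam1 on chromosome 9 and an adhesion molecule of red cells, was also singled out and gave -0.77 (adjusted p = 0.268).

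Ligands of the set gave 16 tested probes of 11 genes (26 of 29 had a probe), with a median of -0.25. No probe was higher and 1 was lower (6.25%, against 1.54% called over the array). An unadjusted p under 0.05 was found for 8 of the 16, against 19.8% of all tested probes. The groups did not overlap for 7 (43.8%, against 27.7% over the array), 2 of them higher and 5 lower. Thbs1, thrombospondin, a matrix ligand of Cd47 and of Itgav integrins, fell. It lay at 5.06, 6.75 and 5.39 in MEC1 mice, where 1 of 3 arrays detected it, against 7.89, 7.99 and 8.07 in control mice (-2.25 ± 0.42, adjusted p = 0.0399 by limma). The values of mice D and F lie below the lowest detected values of their arrays, 5.83 and 5.79, so the size of the change depends on the background handling. It was -1.68 with an offset of 50 and -1.38 from the authors' values (adjusted p = 0.0321 and 0.0324). It did not pass without control mouse A, B or C (0.177, 0.185 and 0.204) or MEC1 mouse F (0.0785), nor without intensity trend and robust variance (0.0734). Fn1, fibronectin, the ligand of Itga5 and Itga4, lay on ILMN_2595714 at 11.07, 12.27 and 11.60 in MEC1 mice, against 13.47, 12.49 and 13.06 in control mice. Its groups did not overlap, but it did not pass (-1.36 ± 0.35, adjusted p = 0.122). Its other tested probes gave -0.44 (adjusted p = 0.406) and -1.26 (adjusted p = 0.167). Sirpa, the receptor of Cd47, gave -0.02 (adjusted p = 0.963), and Lamc1, a laminin chain singled out after its values were seen, gave 1.09 (adjusted p = 0.138).

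**Figure D5:**
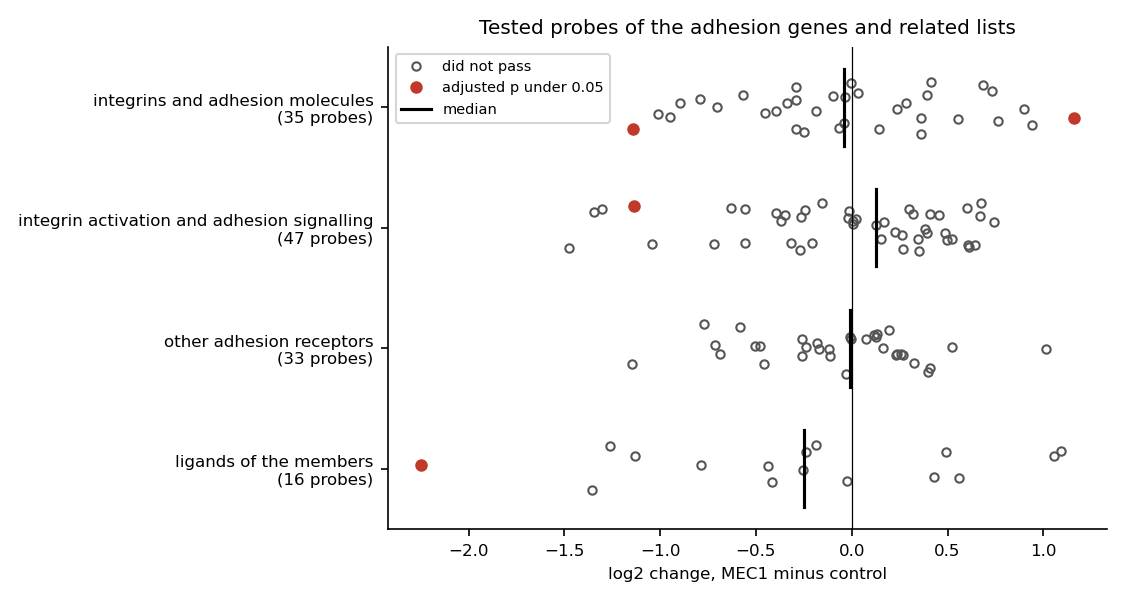
Log2 change, MEC1 minus control (horizontal axis), of each tested probe of the 31 adhesion genes and of the 3 related gene lists, with a bar at each median (-0.04, 0.12, -0.01 and -0.25 from top to bottom) and filled red points for an adjusted p under 0.05. The points of all lists spread to both sides of 0, and 4 probes are red: those of Icam1, Itga4, Fyb and Thbs1. Vertical scatter within a row only separates points.

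Sums over marker genes of several cell types did not overlap between the groups. The summed linear intensity of 10 monocyte and macrophage genes ranged from 55786 to 57538 in MEC1 mice and from 67727 to 70471 in control mice, with no overlap. Its defining genes were bright in both groups, with log2 changes of 0.25 and -0.32 on 2 probes for Csf1r, -0.27 for Cd14 and -0.69 on the first probe of Adgre1, none of which passed. Of the 15 tested probes of that list, 3 had log2 changes above 0 and 12 below, with a median of -0.27 and a range of -1.39 to 1.77. The groups did not overlap for 6 (40%, against 27.7% over the array), 1 higher and 5 lower. An unadjusted p under 0.05 was found for 5, against 19.8% of all tested probes. By limma 1 probe was called higher and 1 lower (13.3%, against 1.54% over the array). Both genes are named here after their values were seen. Fcgr1, a high-affinity receptor for IgG, rose to 8.95, 8.38 and 8.39 in MEC1 mice, against 6.86, 6.85 and 6.71 in control mice (log2 change 1.77 ± 0.25, adjusted p = 0.0170 by limma). Lyz2, the lysozyme of myeloid cells, fell on ILMN_1252076 by 0.45 (adjusted p = 0.0491 by limma), though with scaling to a common median it lay 0.06 above the median of all probes, and its other probes gave 0.08 and -0.26 without a call. The erythroid sum was likewise lower, at 33890 to 61560 in MEC1 mice against 70704 to 86621 in control mice (7 of 10 genes matched; Hba-a1 gave -0.42, adjusted p = 0.201 by limma). All 7 tested erythroid probes had log2 changes below 0, with a median of -0.91 and a range of -1.44 to -0.42. An unadjusted p under 0.05 was found for 6 of the 7, against 19.8% of all tested probes. The groups did not overlap for 2 (28.6%, against 27.7% over the array), and no probe of the list passed. The lymphoid sum was higher, at 3585 to 4056 against 2588 to 3433 (8 of 11 matched), with 2 to 3 of its genes detected on MEC1 arrays and 3 to 4 on control arrays. Only 4 probes of 3 lymphoid genes were tested, 2 with log2 changes above 0 and 2 below, with a range of -0.26 to 0.48 and no call. The groups did not overlap for 1 of them, which was higher (25%, against 27.7% over the array). The B cell gene Cd79b gave -0.02 and 0.00.

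The neutrophil sum overlapped between the groups, at 109260 to 114430 in MEC1 mice against 94257 to 113150 in control mice (11 of 12 matched). Its leading genes Ngp, Ltf and Camp were bright in both groups and gave -0.23, -0.24 and -0.02. The eosinophil sum was 43013 to 50973 against 37952 to 43609 (6 of 8; Prg2 0.12, Epx 0.86 and Prg3 0.54), and the basophil and mast cell sum 13525 to 15014 against 14385 to 18923 (9 of 10; Mcpt8 0.15, Cpa3 -0.13 and Prss34 -0.16). The dendritic cell sum, which holds Itgae and Itgax, was 1392 to 1726 against 1701 to 1931 (11 of 11), with Flt3 not above background on any array, Zbtb46 at -0.50 and Siglech at -0.40. The stem and progenitor sum was 90698 to 99454 against 83152 to 91492 (9 of 9; Cd34 0.27, Kit 0.05 and Mpo 0.04). None of the genes named so far for these 5 lists passed. Chosen after their values were seen, the calls in them were Cd177, 1 of 12 tested neutrophil probes (8.33%), and Prtn3, 1 of 11 tested stem and progenitor probes (9.09%). The share over the array was 1.54%. Cd177, a surface protein of neutrophils, was lower on ILMN_1225233 (-0.94, adjusted p = 0.0361 by limma), and its other probe gave -0.65 (adjusted p = 0.114). Prtn3, a protease of granulocyte precursors, was higher (0.39, adjusted p = 0.0483 by limma), and 10 of the 11 probes of its list were above 0. Each of the 4 called marker probes lost its call without control mouse A, B or C. Those of Lyz2, Cd177 and Prtn3 also lost it without MEC1 mouse E, and that of Prtn3 without MEC1 mouse F (adjusted p = 0.0612 by limma). Lyz2 and Prtn3 did not pass with the authors' values, an offset of 50, no filter or median scaling (adjusted p of 0.0501 to 0.212). Without trend and robust variance, Lyz2, Cd177 and Prtn3 did not pass (0.214, 0.0666 and 0.228). The part of these cell types in the changes of Icam1, Itga4, Fyb and Thbs1 was not tested, nor was the part of human RNA from MEC1 cells.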

How the data were processed

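Biotinylated cRNA of each mouse was put on its own array, 6 in all, per the labels' protocols. The authors deposited, for each of 45281 probes and each array, the average signal intensity and, per the file headers, a detection p-value, both from GenomeStudio per the submitters' processing notes. Its version is not given in the sources used here. Their processed intensity values in a second deposited table, with column medians of 100.7 to 100.8, kept each array's probe order, and from the values look like quantile normalization without background subtraction. Its scale was linear and uncentred, and it served as an alternative.

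Intensities were treated with limma 3.58.1 (R 4.3.3) and its function neqc (normal-exponential background correction, with the negative controls taken from the detection p-values, offset of 16, quantile normalization, log2). The offset shrinks changes of dim probes. Probes detected at p under 0.05 on at least 3 of 6 arrays were fitted by lmFit and eBayes with trend and robust variance, two-sided, with Benjamini-Hochberg adjustment over all 16460 tested probes or all 7239 probe pairs. SD is over 3 mice, SE is the moderated standard error, changes are MEC1 minus control, and the number of arrays limits the precision. Letters are not shared by the groups, so nothing was paired. Probes were named from the platform annotation with symbols updated through RefSeq: 34885 had 1 symbol, 18 several and 10378 none. Probe sequences were not used here.

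The 31 genes, 3 pathway lists and 10 marker lists were chosen with earlier results of these data known. Named were all 31 genes, up to 8 called and 2 brightest genes per pathway list, and the first 3 genes and sum of each marker list, where a sum takes the brightest probe of each gene. Steps were tested on simulated data. Alternatives were the authors' values, median scaling, an offset of 50, other filters, a fit without trend and robust variance, array weights, 1 probe per gene, and leaving out each mouse.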

Additional observations from a re-analysis of the deposited data

Results flagged for a closer look

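The Cd44 probe ILMN_1228214, which lies outside the tested probes, was detected on 1 array, that of MEC1 mouse E, at a log2 intensity of 6.13. In MEC1 mice D and F it lay at 5.06 and 5.42, against 5.09, 4.97 and 5.05 in the control mice (A, B, C), and it was not above background on those 5 arrays. No test was made for this probe.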

How the results depend on the processing

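The 2 calls among adhesion probes (1 higher, 1 lower) became 6 (0 higher, 6 lower) with scaling to a common median, 1 (0 lower) with an offset of 50, 1 (0 lower) with probes detected on all 6 arrays, 0 without trend and robust variance, 1 with 1 probe per gene, and 3 (2 lower) with array weights. The 6 with median scaling were Alcam, Itgam, Itgav ILMN_1236648, Itgb1 ILMN_2609304, and Itga4 ILMN_1232028 and ILMN_2574929. Leaving out each mouse in turn gave 0 to 4 calls, 0 to 1 higher and 0 to 3 lower. Both calls were also made from the authors' values and with no filter. The Itga4 probe ILMN_2574929, detected on 0 of 3 MEC1 arrays, could not enter the fit of probes detected on all 6 arrays. Nor could it enter the fit with 1 probe per gene, which took the brightest tested probe, ILMN_1232028 for Itga4. Those 2 settings thus do not test its call. Over all tested probes, 253 calls became 2111 with median scaling (130 higher, 1981 lower, against 143 and 110), 95 without trend and robust variance and 581 with array weights, and 5 (without control mouse A) to 1210 (without MEC1 mouse D) in the leave-one-out fits. Probe pairs of adhesion genes had 0 to 1 calls in those fits. Of 447 log2 changes of single adhesion probes under an alternative, 404 kept direction and side of the threshold, 13 lost a call, 8 gained one and 22 changed sign. Those that changed sign were not called. With median scaling they were Itgb2 (-0.015), Itgav ILMN_1251946 (-0.067), Cd44 ILMN_2474229 (-0.35), Selplg (-0.46 and -0.13), Icam2 (-0.18) and Pecam1 (-0.17 and -0.16). Itgb1 ILMN_2789077 gave 0.0014 with the authors' values and 0.051 with array weights. With 1 mouse left out the ranges were -0.36 to 0.35 for Itgb7, -0.47 to 0.0014 for Itga4 ILMN_1251003, -0.19 to 0.14 for Vcl, -0.085 to 0.13 for Selplg ILMN_2585233, -0.24 to 0.17 for Itgal and -0.12 to 0.20 for Itgb1 ILMN_2789077. Fewer probes or arrays enter the filtered and leave-one-out fits, and the cause of the other shifts was not tested. No paired analysis was possible because the mice carry no shared replicate label. Dim probes, near the lowest detected values of 5.61 to 5.83 on the log2 scale, bound a change rather than measure it.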
